A study of Homo sapiens with 18 samples.

Results

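Homologous recombination and Fanconi genes were followed across NCI-H460 cells that had, or had not, become resistant to a pair of drugs. They are 36 of the 58051 genes in the deposited tables, listed by symbol and matched to the tables through Ensembl identifiers. They fall into 7 roles, from the BRCA1 and BRCA2 proteins and the enzymes of DNA end resection to the BCDX2 and CX3 complexes, the Fanconi core complex and the kinases that signal DNA damage. NCI-H460, a human cell line long in culture, comes from a large-cell carcinoma of the lung, and all 6 groups carry the genotype label WT. Resistant 1 and resistant 2 are populations of the line that tolerate decitabine given with all-trans retinoic acid (ATRA), and the third population is the parental line. The labels do not say whether a resistant population is a single clone. Each population was exposed for 48 h, from 24 h after seeding to harvest at 72 h, either to 2 µM ATRA with decitabine, which the labels give as 50 µM, or to the solvent DMSO at 0.7% v/v. Each of the 6 groups held 3 biological replicates, so that 18 messenger RNA libraries were read.

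Homologous recombination repairs DNA double-strand breaks and broken replication forks by copying the sister chromatid. A broken end is trimmed to single-stranded DNA, which is prepared with the help of BRCA2 and then invades the intact copy. The Fanconi pathway removes crosslinks that block replication: its core complex attaches ubiquitin to FANCI and FANCD2, which then bring in nucleases and hand the break to recombination. Decitabine is incorporated into DNA in place of deoxycytidine, holds DNA methyltransferases covalently on it, and leaves lesions that these pathways are known to act on during replication. Many of these genes are transcribed mainly in late G1 and S phase of dividing cells.

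Read depth was high, with 116.9 to 140.9 M reads recovered per DMSO library and 115.5 to 180.1 M per treated library, where only genes with restored values count. The authors normalized the 2 treatments in separate tables, so a level inside one treatment is printed in their normalized counts. Levels across treatments are in CPM, counts per M reads, with all 18 libraries scaled together. The epithelial keratin genes KRT8, KRT18 and KRT19 averaged between 31026 and 188443 normalized counts in the 3 DMSO groups. CDH1, which defines most epithelia, was near 0, at 0.915, 1.07 and 1.38 normalized counts in resistant 1, resistant 2 and parental cells. EPCAM averaged 3.90 and 3.88 in the resistant populations and 93.5 in parental cells. Markers of immune and endothelial cells summed to at most 415 and 429 normalized counts in any DMSO library, the B-cell gene MS4A1 was at 0 in 2 of the 3 groups and the endothelial gene CLDN5 in all 3, and the 9 fibroblast markers summed to 493 to 557 normalized counts in resistant 1, 3554 to 4595 in resistant 2 and 8082 to 10046 in parental cells. These 3 ranges did not overlap, and their part in the results below was not tested. A sum does not stand for each marker. Of the 6 fibroblast markers tested against parental cells, 4 had a positive and 2 a negative log2 fold change in resistant 2 (-5.07 to 5.91). In resistant 1, 2 were positive and 4 negative (-7.79 to 2.36). In bulk samples, fewer cells of a type and less RNA per cell cannot be told apart. The labels call the replicates biological without saying whether each was a separate culture, so p-values measure the spread between these libraries.

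With DMSO alone, most of these genes were lower in both resistant populations than in parental cells. In resistant 1, 29 of 36 were called lower and 1 higher (limma, Benjamini-Hochberg adjusted p under 0.05 over 21643 genes). Across all genes tested in that comparison, 26.6% were called lower and 29.3% higher. All 3 resistant 1 libraries were below all 3 parental ones for 30 of the 36 genes and above them for 3, against 30.8% and 33.5% of all genes. In resistant 2, 31 of 36 were called lower and 1 higher, against 29.8% and 32.1% of all genes, and without overlap 31 lay below the parental range and 1 above, against 31% and 33.1%. The median log2 fold change of the 36 genes was -0.95 in resistant 1 and -1.39 in resistant 2, whereas that of all genes was 0.01 and 0.02. Both comparisons share the parental libraries and are not independent of each other. A total of 27 genes were called lower in both populations, as were 17% of all genes, and CHEK2 and RAD51C were called in neither. Called decreases of at least 2-fold were seen for 17 of the 36 genes in resistant 1 and 24 in resistant 2, against 10.5% and 14.9% of all genes, and of at least 4-fold for 3 and 11, against 3.35% and 5.2%.

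**Figure D1:**
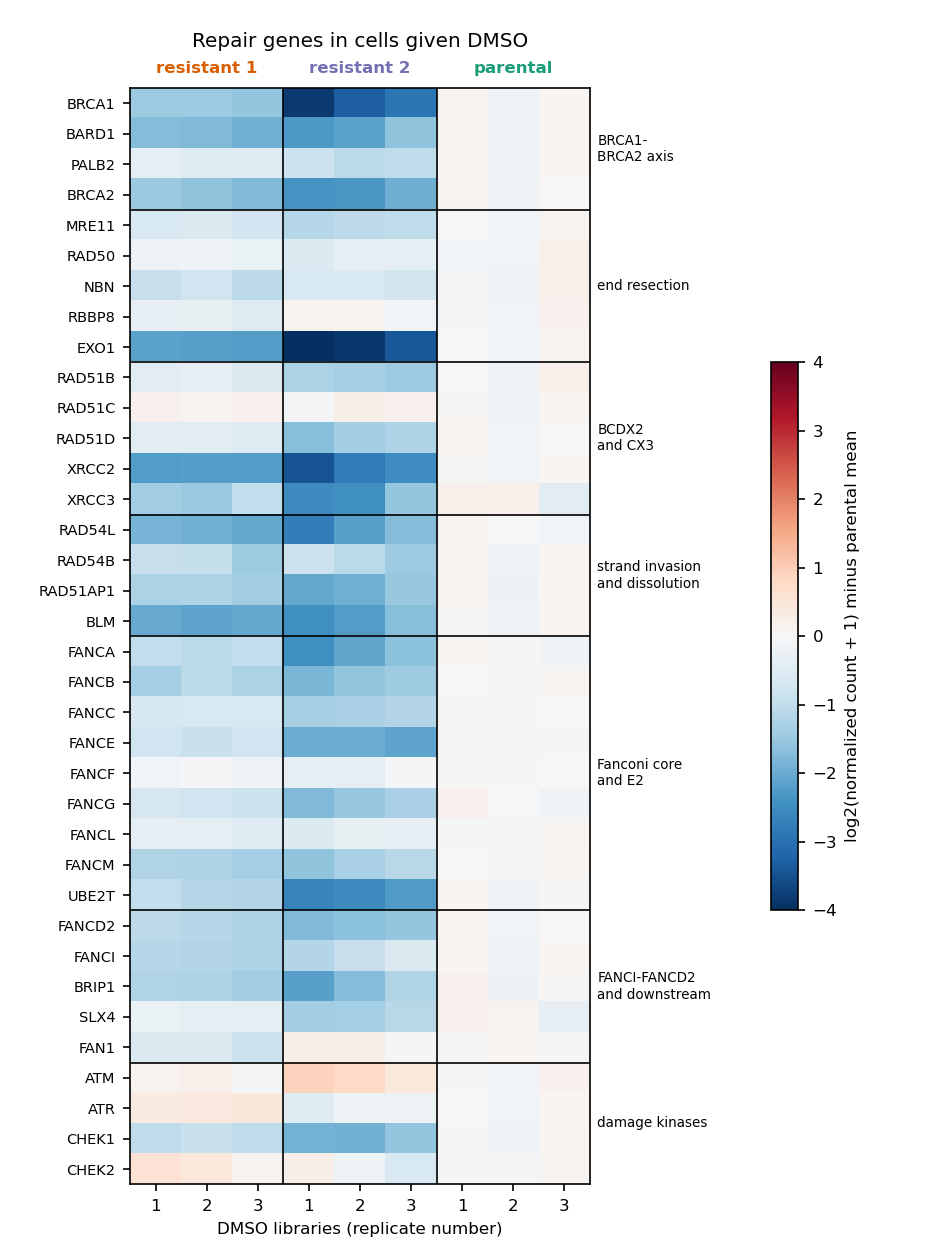
Each row is a gene, grouped by role, and each column a DMSO library of resistant 1, resistant 2 or parental cells; color is log2(normalized count + 1) minus the mean of the 3 parental libraries. Blue prevails in the resistant columns, deepest for EXO1 and BRCA1 in resistant 2, while ATM in resistant 2 and ATR in resistant 1 are red.

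The BRCA1 and BRCA2 genes were called lower throughout, with all 4 members of the role down in each resistant population. BRCA1 (ENSG00000012048, chr17:43044295-43170245), whose protein forms a ubiquitin ligase with BARD1 and promotes resection, had 5287, 5245 and 4872 normalized counts in the 3 resistant 1 libraries, 1011, 1471 and 1921 in resistant 2 and 15328, 12774 and 15094 in parental cells. The 3 groups did not overlap, and resistant 2 was the lowest. On the log2 scale the differences from parental cells were -1.48 ± 0.19 for resistant 1 and -3.34 ± 0.19 for resistant 2 (SE; adjusted p = 5.1e-05 and 6.54e-08, limma), the second a 10.1-fold decrease. BRCA2 (ENSG00000139618, chr13:32315474-32400266), which acts on the trimmed DNA before strand invasion, stood at 1546, 1406 and 1279 normalized counts in resistant 1, 843, 863 and 1108 in resistant 2 and 4806, 3834 and 4377 in parental cells. Its log2 differences were -1.62 ± 0.14 and -2.21 ± 0.14 (adjusted p = 2.28e-06 and 1.38e-07, limma). BARD1, the partner of BRCA1, fell by 1.80 and 2.01 on the log2 scale, a 4.04-fold decrease in resistant 2. PALB2, which bridges BRCA1 and BRCA2, fell least of the 4, by 0.46 in resistant 1 and 0.98 in resistant 2.

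Among the resection genes, the decrease was steep for one nuclease and shallow for the others. EXO1 (ENSG00000174371, chr1:241847967-241895148), the exonuclease of long-range resection, had 15655, 15154 and 14494 normalized counts in resistant 1, 3827, 4751 and 6533 in resistant 2 and 68398, 62997 and 74180.0 in parental cells. No library of one population reached the range of another. Its log2 fold changes of -2.18 ± 0.16 and -3.80 ± 0.16 (adjusted p = 6.94e-07 and 6.8e-09, limma) correspond to decreases of 4.53-fold and 13.9-fold, and the second was the largest among the 36 genes. MRE11 (ENSG00000020922, chr11:94415578-94493908), the nuclease that starts resection together with RAD50 and NBN, was at 4035, 4065 and 3627 normalized counts in resistant 1, 2762, 2995 and 3009.9 in resistant 2 and 6153, 5620.3 and 6639.5 in parental cells. Its levels again lay in 3 separate ranges, with log2 differences of -0.65 ± 0.10 and -1.07 ± 0.10 (adjusted p = 0.000157 and 2.43e-06, limma). NBN fell by 0.93 in resistant 1 and 0.66 in resistant 2. RAD50 was called lower in resistant 2, at -0.45 ± 0.10 (adjusted p = 0.0022), and not in resistant 1, at -0.21 ± 0.10 (adjusted p = 0.0918). The difference between the resistant populations missed the threshold (adjusted p = 0.0657). With the libraries of these 2 populations fitted alone it was called, at 0.24 (adjusted p = 0.0348, limma). In addition, 79.7% of the exonic bases of RAD50 are shared with AC116366.3 on its strand. RBBP8, which encodes the resection factor CtIP, fell by 0.38 in resistant 1 and was at 0.04 ± 0.11 in resistant 2 (adjusted p = 0.748, limma). The resistant populations differed from each other here, at -0.42 ± 0.11 for resistant 1 over resistant 2 (adjusted p = 0.00673).

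Members of the BCDX2 and CX3 complexes, which assist strand exchange, were split. XRCC2 (ENSG00000196584, chr7:152644779-152676165), of the BCDX2 complex, had 1241, 1268 and 1261 normalized counts in resistant 1, 532, 843 and 1048 in resistant 2 and 6097, 5427 and 6144 in parental cells. That is a 4.68-fold decrease in resistant 1 and a 7.55-fold decrease in resistant 2 (adjusted p = 3.4e-06 and 2.72e-07, limma), and neither population reached the parental range. XRCC3 (ENSG00000126215, chr14:103697609-103715504), the partner of RAD51C in the CX3 complex, was at 1770.1, 1660.2 and 2367 normalized counts in resistant 1, 806, 852 and 1611 in resistant 2 and 5375, 5377 and 3506 in parental cells, where replicate 3 was well below the others. Its log2 differences were -1.29 ± 0.26 and -2.17 ± 0.26 (adjusted p = 0.00161 and 2.79e-05, limma), but 76.7% of its exonic bases are shared with exons of KLC1 on the other strand, and without a stated strand setting reads of the pair cannot be told apart. RAD51B and RAD51D fell by 0.46 and 0.47 in resistant 1 and by 1.35 and 1.44 in resistant 2. The call of RAD51B in resistant 1 was lost without that population's replicate 3 (adjusted p = 0.0527). RAD51C, shared by both complexes, was at 4541, 4405 and 4581 normalized counts in resistant 1, 3978, 4768 and 4635 in resistant 2 and 4224, 3702 and 4323 in parental cells. It was called in neither, at 0.15 ± 0.10 and 0.13 ± 0.10 (adjusted p = 0.238 and 0.296, limma).

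The 4 genes of strand invasion and of the dissolution of its products were all called lower in each population, with medians of -1.61 in resistant 1 and -1.98 in resistant 2 on the log2 scale. RAD54L (ENSG00000085999, chr1:46247688-46278473), a motor protein of strand invasion, had 1352, 1285 and 1185 normalized counts in resistant 1, 714, 1088 and 1472 in resistant 2 and 5215, 4891 and 4519 in parental cells. BLM (ENSG00000197299, chr15:90717327-90816165), the RecQ helicase that dissolves double Holliday junctions, had 1046, 998 and 1024 in resistant 1, 785, 898 and 1312 in resistant 2 and 4392, 3898 and 4541 in parental cells. For both genes the resistant populations overlapped each other and stayed far below the parental range. RAD54L changed by -1.93 ± 0.21 and -2.22 ± 0.21, and BLM by -2.06 ± 0.17 and -2.13 ± 0.17 (adjusted p between 8.19e-07 and 1.49e-05, limma). RAD51AP1, which stimulates strand invasion, fell by 1.29 and 1.83, and RAD54B, a second motor protein, by 1.09 and 1.13. RAD54B shares 59.1% of its exonic bases with FSBP on the same strand.

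In the Fanconi core complex and its ubiquitin-conjugating enzyme, 8 of 9 members were called lower in resistant 1 and 9 of 9 in resistant 2. UBE2T (ENSG00000077152, chr1:202331657-202341980), the conjugating enzyme that serves the ligase FANCL, had 7292, 6588 and 6515 normalized counts in resistant 1, 2339.7, 2547 and 3009 in resistant 2 and 15281, 13344 and 15165 in parental cells. The 3 ranges were apart, and the log2 differences were -1.10 ± 0.11 and -2.48 ± 0.11 (adjusted p = 7.55e-06 and 1.03e-08, limma). FANCA (ENSG00000187741, chr16:89737549-89816657), a subunit of the core, had 6985, 6597 and 6994 normalized counts in resistant 1, 2527, 3306 and 4441 in resistant 2 and 15084, 14261 and 12597 in parental cells, with differences of -1.02 ± 0.17 and -2.06 ± 0.17 (adjusted p = 0.000337 and 1.12e-06, limma). Of the other core subunits, FANCE fell by 0.82 and 2.03, FANCB by 1.23 and 1.61, FANCG by 0.78 and 1.52, and FANCC by 0.63 and 1.26. FANCM, the translocase that anchors the core on DNA, fell by 1.26 and 1.33. FANCL fell by 0.42 and 0.39. FANCF, the adaptor of the core, was at -0.11 ± 0.11 in resistant 1, which was not called, and at -0.29 ± 0.11 in resistant 2, which was (adjusted p = 0.422 and 0.0368, limma). The second call did not last: without single libraries (parental replicate 1 or 3, resistant 2 replicate 1 or 2) its adjusted p ran between 0.0722 and 0.126, and edgeR gave 0.0511.

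Downstream of the core, FANCD2 (ENSG00000144554, chr3:10026414-10101930), a part of the clamp that receives ubiquitin, had 3679, 3481 and 3240.1 normalized counts in resistant 1, 2261, 2472 and 2605 in resistant 2 and 8114, 7136 and 7832 in parental cells. BRIP1 (ENSG00000136492, chr17:61681266-61863521), the helicase that binds BRCA1, had 1432, 1401 and 1256 in resistant 1, 729, 997 and 1426 in resistant 2 and 3697, 2833 and 3423 in parental cells. FANCD2 fell into 3 separate ranges, while for BRIP1 the resistant populations overlapped. FANCD2 changed by -1.15 ± 0.10 and -1.65 ± 0.10 and BRIP1 by -1.28 ± 0.21 and -1.70 ± 0.21 (adjusted p between 8.24e-08 and 0.000311, limma). FANCI, the other part of the clamp, fell by 1.18 in resistant 1 and 0.89 in resistant 2. SLX4, the scaffold that holds the crosslink nucleases, fell by 1.29 in resistant 2, while in resistant 1 it was at -0.34 ± 0.14 (adjusted p = 0.058), a value that became a call without parental replicate 3 (adjusted p = 0.00419) and with DESeq2 (adjusted p = 0.0398). FAN1, a nuclease recruited by the clamp, fell by 0.67 in resistant 1 and was at 0.12 ± 0.12 in resistant 2 (adjusted p = 0.415). The populations differed from each other in FAN1, at -0.79 ± 0.12 for resistant 1 over resistant 2 (adjusted p = 0.000274, limma).

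The kinases held calls in both directions in each population. CHEK1 (ENSG00000149554, chr11:125625136-125676255), the checkpoint kinase that ATR activates, had 3683, 4039 and 3642 normalized counts in resistant 1, 2004, 1976 and 2472 in resistant 2 and 7714, 6700.5 and 7976 in parental cells. It was lower in both, at -0.98 ± 0.11 and -1.80 ± 0.11 (adjusted p = 2.63e-05 and 1.55e-07, limma). ATM (ENSG00000149311, chr11:108222484-108369102), the kinase of double-strand breaks, had 9788, 10291 and 8592 in resistant 1, 16894, 15651 and 12053 in resistant 2 and 8731, 8219 and 10031 in parental cells. Resistant 1 overlapped the parental range at 0.09 ± 0.13 (adjusted p = 0.599), and resistant 2 lay above it, a 1.64-fold increase of 0.72 ± 0.13 (adjusted p = 0.000679, limma). ATR (ENSG00000175054, chr3:142449235-142578826), the kinase of stalled forks, had 10162, 10329 and 10776 in resistant 1, 5511, 6920.5 and 6858 in resistant 2 and 7990.1, 7337 and 8239 in parental cells. It was higher in resistant 1, at 0.41 ± 0.10 (adjusted p = 0.00534), and lower in resistant 2, at -0.29 ± 0.10 (adjusted p = 0.0258, limma). The call in resistant 2 was lost without parental replicate 1 or 3 (adjusted p = 0.072 and 0.0693) and without resistant 2 replicate 1, where the log2 difference shrank to -0.19 (adjusted p = 0.0879). CHEK2, the checkpoint kinase under ATM, had 6424, 5743 and 4693 in resistant 1, 4984, 3817 and 2805 in resistant 2 and 4154, 4066 and 4648 in parental cells, and was called in neither (adjusted p = 0.106 and 0.411, limma). With parental and resistant 1 libraries fitted alone it was called higher in resistant 1 (adjusted p = 0.0314). CHEK2 has 4 annotated pseudogenes under its name, and its counts are uncertain to that extent.

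Most of these genes were higher in resistant 1 than in resistant 2. In the direct test of resistant 1 over resistant 2 with DMSO, 21 of 36 genes were called higher in resistant 1 and 3 lower, against 27.4% and 26% of all genes. Without overlap, 21 were above resistant 2 and 4 below, against 31.2% and 29.2%. The median log2 difference was 0.51, against 0.02 over all genes. BRCA1, EXO1 and UBE2T differed most, at 1.85 ± 0.19, 1.62 ± 0.16 and 1.37 ± 0.11 (adjusted p = 9.95e-06, 7.59e-06 and 1.47e-06, limma), and the 3 genes lower in resistant 1 were ATM, FAN1 and RBBP8. BLM, RAD54L, RAD54B, BARD1 and FANCM, which had fallen in both populations, gave differences between 0.04 and 0.28 that missed the threshold. Under at least 1 alternative BARD1 and RAD54L were called, as were BRIP1, FANCF, FANCI, NBN and RAD50. Not each of the 21 was a deeper decrease in resistant 2: ATR was higher in resistant 1 than in parental cells, and CHEK2 was called in neither population. The calls of CHEK2, FANCB and XRCC3 between the resistant populations were lost without any of several single libraries, with CHEK2 at 0.35 without resistant 2 replicate 3 (adjusted p = 0.0742, limma), against 0.57. XRCC2 kept its call and moved to 0.42 without resistant 2 replicate 1, against 0.69.

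Libraries of resistant 2 were also the most spread. The median coefficient of variation over the 36 genes was 5.70% in resistant 1, 14.96% in resistant 2 and 8.67% in parental cells with DMSO. Replicate 1 was the lowest of the 3 resistant 2 libraries for 26 of 36 genes and replicate 3 the highest for 23. The summed CPM of 16 proliferation markers was 609, 677 and 938 in resistant 2 replicates 1, 2 and 3, against 1433, 1327 and 1292 in resistant 1 and 3497, 2963 and 3162 in parental cells. The library with the lowest sum was thus also the one with the lowest level for most of these genes. Without resistant 2 replicate 1, 29 rather than 31 genes were called lower in resistant 2, so the count did not rest on that library. Whether the spread in proliferation markers enters into that of the repair genes was not tested.

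Other repair lists held calls in both directions. Of all genes, 26.6% were called lower and 29.3% higher in resistant 1, and 29.8% and 32.1% in resistant 2. These shares apply to the lists here and to the markers in the next paragraph. Of 27 other homologous recombination genes, 18 were called lower and 4 higher in resistant 1, and 17 and 4 in resistant 2, with median log2 fold changes of -0.52 and -0.90. DNA2, a nuclease of long-range resection, fell by 1.77 and 2.77, and HROB, a factor of the MCM8 and MCM9 helicase, changed by -1.41 and -2.70. Of 14 other Fanconi genes, 6 were lower and 1 higher in resistant 1 and 8 and 1 in resistant 2, with medians of -0.32 and -0.60; CENPS and CENPX, the histone-fold pair that binds FANCM, fell by 1.79 and 1.65 in resistant 2. Of 19 other checkpoint genes, 13 and 14 were lower and 2 and 4 higher, with medians of -0.87 and -1.06. CDC25A, the phosphatase that CHEK1 targets, fell by 2.09 and 2.84, and CLSPN, the adaptor between ATR and CHEK1, by 1.37 and 2.36. In end joining, 6 and 7 of 12 genes were lower and 3 and 2 higher (medians -0.25 and -0.68), with POLQ, the polymerase of microhomology-mediated joining, down by 1.09 and 1.61. LIG3, a ligase, fell by 1.27 in resistant 2. In base and nucleotide excision repair, 11 and 13 of 24 genes were lower and 5 and 5 higher (medians -0.27 and -0.28): NEIL3, a glycosylase, fell by 2.00 and 2.54, while DDB2, the damage sensor that p53 induces, rose by 0.96 and 1.92. Of 7 mismatch repair genes, 3 and 4 were lower and 1 and 0 higher (medians -0.09 and -0.41), among them MSH6, which recognises mismatches, at -0.76 and -0.68.

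Markers of dividing cells were lower along with the repair genes, while most targets of p53 were higher. All 16 proliferation markers were called lower in each resistant population, with medians of -1.43 and -2.18 on the log2 scale. E2F2, an S-phase transcription factor, fell by 1.91 and 4.05, and MCM10, a replication initiation factor, by 2.18 and 3.04. Of 16 p53 targets, 12 were called higher and 1 lower in resistant 1, and 14 and 0 in resistant 2, with medians of 1.07 and 1.56. CDKN1A, the inhibitor of cyclin-dependent kinases also known as p21, averaged 68124 ± 4657 normalized counts in resistant 1, 122123 ± 22858 in resistant 2 and 5050 ± 690 in parental cells (SD, n = 3 each), rising by 3.76 and 4.59. TP53INP1, another p53 target, rose by 4.31 in resistant 2. Their part in the decrease of the repair genes was not tested.

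Sequence upstream of the start was searched because so many of these genes moved together. A promoter window of 250 bases before the start was available for 33 of 36 genes (RefSeq, GRCh38.p14). Where several starts are listed, as for 11 of these genes, the first was used; that of BRCA1 lies 44963 bases from its second. A set of 3 motifs of cell-cycle promoters was sought on both strands: the E2F motif as TTTGGCGC, TTTCCCGC, TTTCGCGC or TTTGCCGC, the CHR element as TTTGAA, and the CCAAT box as CCAAT. No motif contains another. E2F letters occurred in 2 of the 33 windows (6.06%) and in 2.79% of 27305 promoters, CHR letters in 4 (12.1%) and 13.6%, and CCAAT in 14 (42.4%) and 33.0%. With every listed window searched, E2F and CHR stayed at 2 and 4 genes, and CCAAT came to 15 (45.5%), BRCA1 being added, against 3.40%, 16.1% and 37.0% of genes. The windows below are those of the 2 genes with E2F letters, of XRCC3, which holds the most CCAAT letters of the 33, and of ATM, which did not fall; each runs 5′ to 3′ along the gene, with the matched letters of any of the 3 motifs, on either strand, in capitals. FANCA lies on the minus strand (chr16:89816648-89816897), FANCC on the minus strand (chr9:95317710-95317959), XRCC3 on the minus strand (chr14:103715452-103715701) and ATM on the plus strand (chr11:108222817-108223066).
FANCA: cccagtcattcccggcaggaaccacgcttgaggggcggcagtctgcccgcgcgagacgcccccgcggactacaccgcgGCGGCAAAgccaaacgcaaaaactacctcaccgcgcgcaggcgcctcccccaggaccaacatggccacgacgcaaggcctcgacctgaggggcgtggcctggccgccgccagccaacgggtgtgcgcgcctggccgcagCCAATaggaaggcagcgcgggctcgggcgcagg
FANCC: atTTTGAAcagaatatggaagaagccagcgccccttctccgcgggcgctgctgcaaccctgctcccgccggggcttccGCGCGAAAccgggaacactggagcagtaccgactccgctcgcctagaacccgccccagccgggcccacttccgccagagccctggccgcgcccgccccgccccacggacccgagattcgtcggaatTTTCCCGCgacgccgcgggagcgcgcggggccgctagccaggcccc
XRCC3: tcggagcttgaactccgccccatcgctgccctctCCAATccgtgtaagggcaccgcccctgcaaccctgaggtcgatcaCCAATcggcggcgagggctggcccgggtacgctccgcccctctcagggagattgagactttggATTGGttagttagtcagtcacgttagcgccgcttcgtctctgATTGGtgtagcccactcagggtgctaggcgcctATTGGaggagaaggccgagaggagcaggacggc
ATM: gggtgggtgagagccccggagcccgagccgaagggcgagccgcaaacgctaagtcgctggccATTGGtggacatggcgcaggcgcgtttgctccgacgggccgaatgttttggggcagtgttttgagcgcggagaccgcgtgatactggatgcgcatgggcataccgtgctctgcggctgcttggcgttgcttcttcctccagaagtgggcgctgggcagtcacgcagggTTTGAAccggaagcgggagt
FANCA holds 1 E2F and 1 CCAAT match, FANCC 2 E2F and 1 CHR, XRCC3 5 CCAAT, and ATM 1 CHR and 1 CCAAT. Both genes with E2F letters fell in each resistant population, as did most genes without them. The windows of BRCA2, EXO1 and XRCC2, which fell steeply, held none of the 3 motifs.

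In cells given ATRA and decitabine, fewer of these genes were called lower in the resistant populations than with DMSO. FANCL was left out, since its treated values could not be restored at 99% probability, so 35 genes were compared. In resistant 1, 14 were called lower and 7 higher, where 32% and 34.3% of all 20013 genes were; 19 lay below the parental range and 10 above, against 36.2% and 38.2%. In the same population the median log2 difference was -0.21 against 0.02 over all genes. In resistant 2, 19 were lower and 6 higher, where 34.1% and 37.5% of all genes were, with a median of -0.42 against 0.05; 21 lay below the parental range and 6 above, against 35.8% and 38.9%. The genes lower in resistant 1 are 40.0% of the 35, near the share of all genes, and those in resistant 2 are 54.3%. Called lower in both were 10 of the 35 genes, a share not far above the 22.5% of all genes. Each of the 10 was also lower in both with DMSO: BRCA1, BRCA2, PALB2, MRE11, EXO1, XRCC2, RAD51AP1, BLM, FANCB and FANCM. PALB2 lost its resistant 1 call without treated replicate 2 of that population (adjusted p = 0.052, limma). BRIP1, FANCG, RAD50, RAD51C and RAD54B were called in neither population. With resistant 1 and parental libraries fitted alone, however, RAD50 was called higher in resistant 1, at 0.19 (adjusted p = 0.0123), and RAD51C lower, at -0.23 (adjusted p = 0.0091, limma). DESeq2 called RAD54B lower in both (adjusted p = 0.0376 and 0.0175) and RAD51C lower in resistant 1 (adjusted p = 0.0391), edgeR called RAD54B lower in resistant 2 (adjusted p = 0.049), and RAD50 was called higher in resistant 2 without its treated replicate 1 (adjusted p = 0.00749).

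BRCA1 had the largest treated decrease of the 35 genes in resistant 2, with 8999, 9458 and 7715 normalized counts in resistant 1, 2969, 4309 and 4895 in resistant 2 and 14573, 13981 and 14388 in parental cells. Its log2 differences were -0.72 ± 0.15 and -1.85 ± 0.15 (adjusted p = 0.00144 and 7.5e-07, limma), and resistant 2 lay below the other populations. EXO1 had 18828, 20409 and 16198 in resistant 1, 8743, 13922 and 14710.4 in resistant 2 and 33207, 32127 and 33374 in parental cells, a difference of -0.84 ± 0.16 and -1.44 ± 0.16 (adjusted p = 0.000825 and 1.04e-05, limma). XRCC2 changed by -1.43 ± 0.16 and -1.39 ± 0.16, and FANCM by -1.20 ± 0.13 and -0.95 ± 0.13, beside its DMSO values of -1.26 and -1.33.

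A few genes stood above the parental level. RBBP8 had 10275, 9344 and 8567 normalized counts in resistant 1, 12274, 15787 and 14202 in resistant 2 and 6279, 5869.8 and 6129 in parental cells, with no overlap between the populations. The differences of 0.62 ± 0.10 and 1.20 ± 0.10 (adjusted p = 0.00019 and 7.61e-07, limma) make it 1.54-fold and 2.3-fold higher. ATM was at 12138, 11104 and 10350.1 in resistant 1, 17564, 17773 and 14991 in resistant 2 and 9099.8, 9691 and 9777 in parental cells. Its increase in resistant 2 was 0.81 ± 0.09 (adjusted p = 6.27e-06), and the one in resistant 1, at 0.23 ± 0.09 (adjusted p = 0.035, limma), was lost with DESeq2 (adjusted p = 0.115), with no filter and without each of 5 libraries (adjusted p 0.0520 to 0.134 in all). FANCF, called higher in both at 0.36 ± 0.12 and 0.39 ± 0.12, lost the call in resistant 1 without parental replicate 2 (adjusted p = 0.0753), parental replicate 3 (0.0518) or resistant 1 replicate 1 (0.052). NBN had 8519, 8025 and 7906 in resistant 1, 9938, 11095 and 10427 in resistant 2 and 7228, 7119 and 7761 in parental cells. FANCI had 15789.7, 16042 and 13919 in resistant 1, 21344, 28684 and 31369 in resistant 2 and 19691, 20093 and 19701 in parental cells. Both lay above parental cells in resistant 2, by 0.51 ± 0.07 and 0.43 ± 0.12 (adjusted p = 6.58e-05 and 0.00725, limma). RAD51B, RAD51D and RBBP8 in resistant 1, and FANCF, FANCI and NBN in resistant 2, changed sign against parental cells. They were called lower than parental cells with DMSO and higher with the drugs, as were 2.9% of all genes in resistant 1 and 3.02% in resistant 2. The DMSO calls of RAD51B in resistant 1 and of FANCF in resistant 2 were lost without single libraries, as given above. In the response tests below, each of these genes was called lower with the drugs in parental cells. Within the resistant population named, FANCI was called higher with the drugs (all populations fitted), NBN lower, and RAD51B, RAD51D, RBBP8 and FANCF were not called. SLX4 had 3321, 3572 and 3444 normalized counts in resistant 1, 2111, 1719 and 2170.1 in resistant 2 and 2949, 2642 and 2805 in parental cells, and its call in resistant 1, at 0.30 ± 0.10 (adjusted p = 0.0201, limma), was lost without parental replicate 2 or 3 or resistant 1 replicate 2 (adjusted p 0.0542 to 0.0795). FAN1 was higher by 0.92 ± 0.10 in resistant 2 and CHEK2 by 0.66 ± 0.13 in resistant 1 (adjusted p = 6.01e-06 and 0.00107, limma). Between the resistant populations with the drugs, 12 genes were called higher in resistant 1 and 8 lower, where 28.4% of all genes were in each direction, and the median difference was 0.01. Without overlap, 12 were above resistant 2 and 6 below, against 29.8% and 29.6%.

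**Figure D2:**
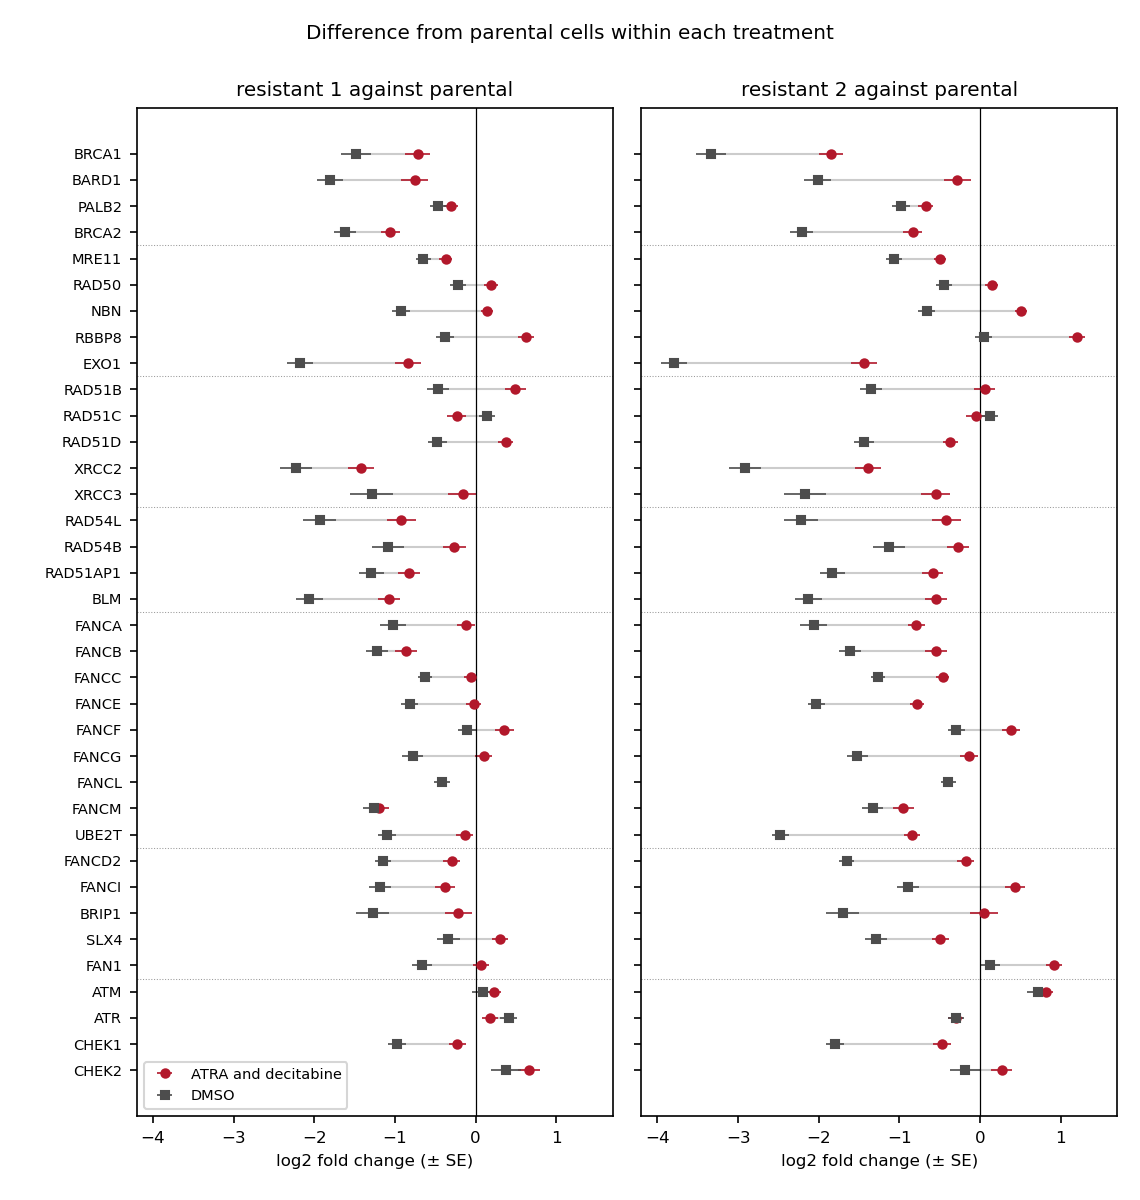
Log2 fold change against parental cells (± SE) for each gene in resistant 1 and resistant 2, with ATRA and decitabine (red circles) and with DMSO (grey squares), each from n = 3 libraries a group; grey lines join the treatments. Red circles lie nearer to 0 than grey squares for 29 of 35 genes in each population, a count not made over all genes. Both populations are set against the same parental libraries, in which 25 of 35 genes were called lower with the drugs. Medians were -0.21 against -0.95 in resistant 1 and -0.42 against -1.39 in resistant 2. FANCL has no treated value.

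For 13 genes, the drug response was called a decrease in parental cells and an increase in resistant 2, where 1.41% of all genes were. The response, treated over DMSO within a population, was tested on log2(CPM + 1) over 20187 genes, a scale on which changes of genes with low CPM are understated. In parental cells, 25 of 35 genes were called lower and 1 higher, where 32.2% and 33% of all genes were, and 29 were below the DMSO range and 1 above, against 34.6% and 36.7%. In resistant 2, 20 were called higher and 1 lower, where 10.5% and 7.74% of all genes were, and 19 were above the DMSO range and 1 below, against 14.9% and 12.6%. In resistant 1, 3 were higher and 2 lower, where 15.1% and 12.3% of all genes were, and 10 were above the DMSO range and 6 below, against 22.9% and 21.7%. The median responses of the 35 genes were 0.03 in resistant 1, 0.48 in resistant 2 and -0.53 in parental cells, and all genes had medians of 0.00. These values rest on the scaling of the 18 libraries together. Its factors (TMM), which lower CPM where they are larger, were 1.18 to 1.23 in treated parental libraries against 0.91 to 0.97 with DMSO. They were 1.05 to 1.09 against 0.95 to 0.97 in resistant 1, and 0.972 to 0.997 against 0.876 to 0.894 in resistant 2. The 13 genes called in opposite directions were BARD1, EXO1, XRCC2, XRCC3, BLM, FANCB, FANCE, FANCG, UBE2T, FANCD2, FANCI, BRIP1 and CHEK1. With the resistant 2 libraries fitted alone, 1 of the 13, FANCD2, kept its increase.

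The largest called responses in parental cells were those of NBN, EXO1 and RAD51B. NBN (ENSG00000104320, chr8:89933336-90003228) had 51.9, 51.1 and 55.7 CPM in treated parental libraries against 133, 127 and 162 CPM with DMSO, a log2 change of -1.39 ± 0.08 (adjusted p = 2.44e-10, limma). It was also lower in treated resistant 1, at 57.1, 54.6 and 54.8 CPM against 72.2, 77.9 and 66.8 CPM, and in treated resistant 2, at 66.6, 72.2 and 69.6 CPM against 87.4, 87 and 80.9 CPM. All 3 decreases were without overlap, and those in resistant 1 and resistant 2 were -0.37 ± 0.08 and -0.29 ± 0.08 (adjusted p = 0.00261 and 0.0195, limma). They differed from the parental response by 1.01 ± 0.11 and 1.10 ± 0.11 (adjusted p = 2.6e-06 and 8.34e-07). EXO1 fell in parental cells to 239, 231 and 239.7 CPM, against 599.9, 552 and 649 CPM with DMSO (-1.34 ± 0.18, adjusted p = 4.49e-06, limma). In resistant 1 it was at 126, 139 and 112 CPM against 135, 129 and 125 CPM, and in resistant 2 at 58.6, 90.6 and 98.3 CPM against 32.1, 39.8 and 55.6 CPM. Thus EXO1 fell in parental cells, rose in resistant 2 (0.94 ± 0.18, adjusted p = 0.00116) and was not called in resistant 1 (-0.05 ± 0.18, adjusted p = 0.892, limma). The increase in resistant 2 was not called with its 6 libraries fitted alone (adjusted p = 0.103). RAD51B (ENSG00000182185, chr14:67819779-68730218) had 4.33, 3.88 and 4.49 CPM in treated parental libraries against 9.58, 8.54 and 11.3 CPM, a change of -1.04 ± 0.11 (adjusted p = 2.7e-07, limma), and was called in neither resistant population.

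With all populations fitted, RAD51C was the 1 gene called higher in treated parental cells, at 54.9, 51.9 and 50.7 CPM against 37, 32.5 and 37.8 CPM with DMSO (0.54 ± 0.10, adjusted p = 0.000239, limma). FANCM was at 0.20 and was called with the parental libraries fitted alone (0.27, adjusted p = 0.0194). BRCA1 and BRCA2 were not called in parental cells, at -0.29 ± 0.18 and -0.09 ± 0.12 (adjusted p = 0.171 and 0.554, limma). With the parental libraries alone, BRCA1 was called lower, at -0.21 (adjusted p = 0.0305), as was RAD54L, at -0.39 (adjusted p = 0.00305, limma). In resistant 2 they were at 19.9, 28.1 and 32.7 CPM against 8.47, 12.3 and 16.3 CPM and 15.9, 18.6 and 21 CPM against 7.07, 7.23 and 9.43 CPM, increases of 1.08 ± 0.18 and 1.13 ± 0.12 (adjusted p = 0.000469 and 7.15e-06, limma). The treated and DMSO libraries of resistant 2 did not overlap for either gene. RAD54L, at 1.17 ± 0.20, and BLM, at 1.02 ± 0.15, were also called higher in resistant 2. Of these 4 increases, that of BRCA2 was still called with the resistant 2 libraries fitted alone, and those of BRCA1, RAD54L and BLM were not (adjusted p = 0.0796, 0.087 and 0.0572, limma). In resistant 1, FANCA had 90.5, 93.1 and 83.4 CPM against 60.3, 56.3 and 60.2 CPM (0.59 ± 0.15, adjusted p = 0.00803, limma). ATR fell by 0.29 there, and BLM and BRCA2 rose by 0.47 and 0.40.

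The calls within resistant 2 depended on how the spread was estimated. With its 6 libraries fitted alone, 3 of 35 genes were called rather than 21: BRCA2 (1.13, adjusted p = 0.0166, limma), FANCD2 (0.59, adjusted p = 0.0278) and NBN (-0.29, adjusted p = 0.0492). That is 5.71% called higher and 2.86% lower, near the 4.99% and 2.58% of all genes in the same fit. In resistant 1 the fit of its own 6 libraries called 12 rather than 5, 9 of them higher (25.7%) and 3 lower (8.57%), against 17.3% and 13% of all genes. With all populations fitted, leaving out resistant 1 DMSO replicate 2 or 3 or treated replicate 1 or 2 left 2 calls in resistant 1, and leaving out its DMSO replicate 1 left 3; FANCA and NBN were the genes called in every case, while ATR, BLM and BRCA2 each lost the call in some (adjusted p 0.0588 to 0.115). In parental cells, BLM, CHEK2, FANCB, XRCC2 and XRCC3 lost their calls under at least 1 alternative (adjusted p 0.0525 to 0.172), and FANCB shrank to -0.21 without treated replicate 1.

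**Figure D3:**
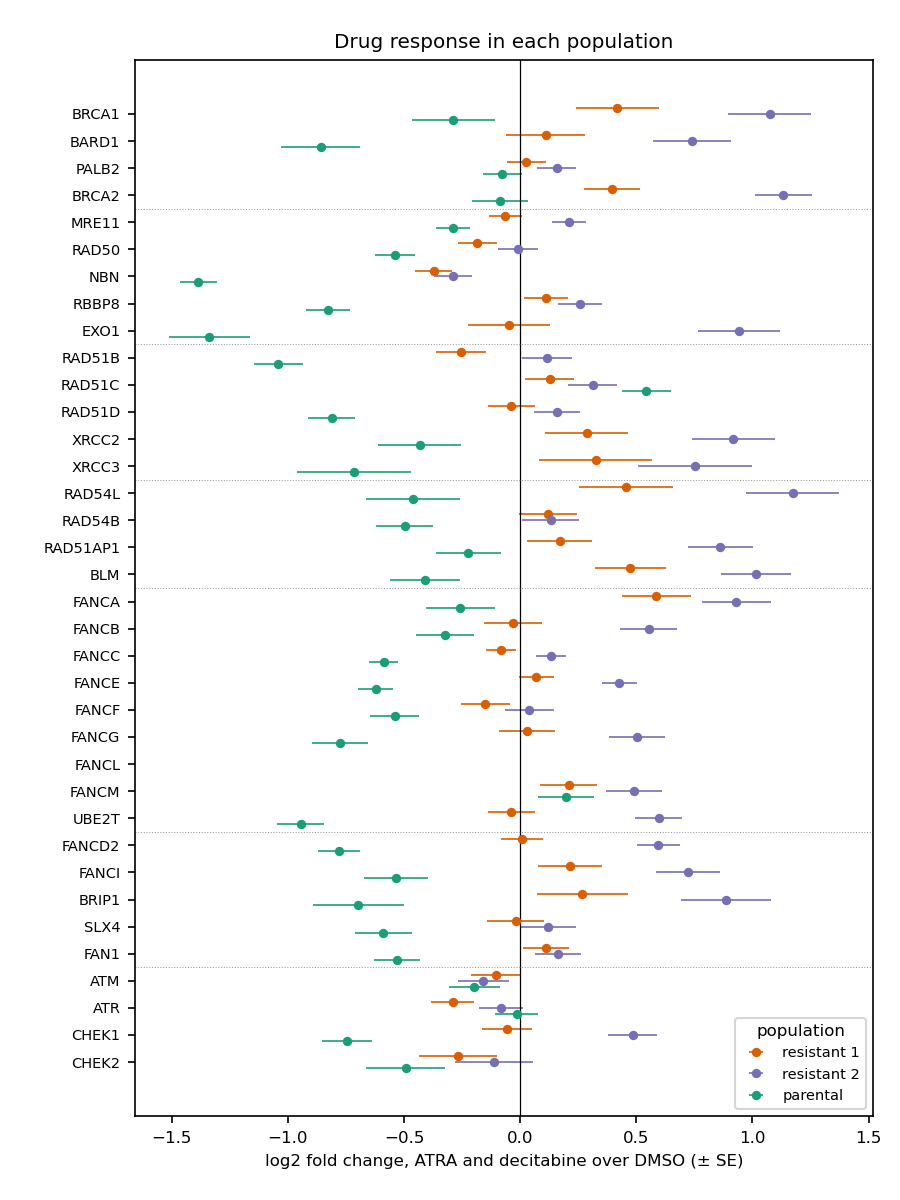
Log2 fold change of ATRA and decitabine over DMSO (± SE, n = 3 libraries a group) for each gene in resistant 1 (orange), resistant 2 (purple) and parental cells (green), on log2(CPM + 1). Green points lie left of 0 for 33 of 35 genes, purple points right of 0 for 30 of 35, and orange points mostly near 0.

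The responses were then compared with each other. The log2 response was more positive in resistant 1 than in parental cells for 26 of 35 genes and more negative for 1, where 20.5% and 23.4% of all genes were. In resistant 2 it was more positive for 29 and more negative for 0, where 23.6% and 26% of all genes were, and none of the 35 was more negative at an unadjusted p under 0.05 (limma). These comparisons share the parental libraries. The median difference was 0.69 in resistant 1 and 1.08 in resistant 2, against 0.00 and 0.01 over all genes. EXO1 differed most in both, by 1.29 ± 0.25 and 2.28 ± 0.25 (adjusted p = 0.000503 and 1.35e-06, limma). UBE2T, FANCD2 and FANCE gave 1.54 ± 0.14, 1.38 ± 0.13 and 1.05 ± 0.11 in resistant 2 (adjusted p = 2.04e-07, 2.7e-07 and 6.75e-07). Called in neither were ATM, ATR, CHEK2, FANCM and PALB2, with differences between -0.27 and 0.38. The gene that went the other way in resistant 1 was RAD51C, at -0.42 ± 0.15 (adjusted p = 0.0312, limma), and it lost the call without any of 6 libraries (adjusted p 0.0510 to 0.0791). BRCA1, BRCA2, FANCF, RAD50, XRCC2 and XRCC3 also lost theirs in resistant 1 under at least 1 alternative. Between the resistant populations, the log2 response was more negative in resistant 1 for 4 of 35 genes (BRCA2, EXO1, FANCD2 and UBE2T) and more positive for 0. Of all genes, 1.54% were more negative and 3.1% more positive. That count was the least stable: it was 14 without DMSO replicate 3 of resistant 2 and 11 without its treated replicate 1. It was 1 or 2 without DMSO replicate 1 or treated replicate 3 of resistant 1, or DMSO replicate 2 or treated replicate 3 of resistant 2. FANCD2 kept its call throughout.

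Other lists also responded to the drugs, and not all in the direction of the repair genes. The proliferation markers had median responses of 0.25 in resistant 1, 0.78 in resistant 2 and -0.35 in parental cells, with 1, 14 and 1 of 16 called higher and 0, 0 and 7 lower. Their summed CPM lay between 1469 and 1722 in treated resistant 1 against 1292 to 1433 with DMSO, between 989 and 1426 in treated resistant 2 against 609 to 938, and between 2706 and 2742 in treated parental cells against 2963 to 3497. The p53 targets had median responses of 0.31, 0.10 and 2.01, with 8, 4 and 13 of 16 called higher. Of 27 other homologous recombination genes, 3, 12 and 5 were called higher in resistant 1, resistant 2 and parental cells and 0, 0 and 13 lower. Of all genes, 15.1%, 10.5% and 33% were called higher in the same order, and 12.3%, 7.74% and 32.2% lower. All these counts come from the fit of all populations, and calls in resistant 2 depended on that fit, as given above. How far these changes enter into those of the repair genes was not tested.

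**Figure D4:**
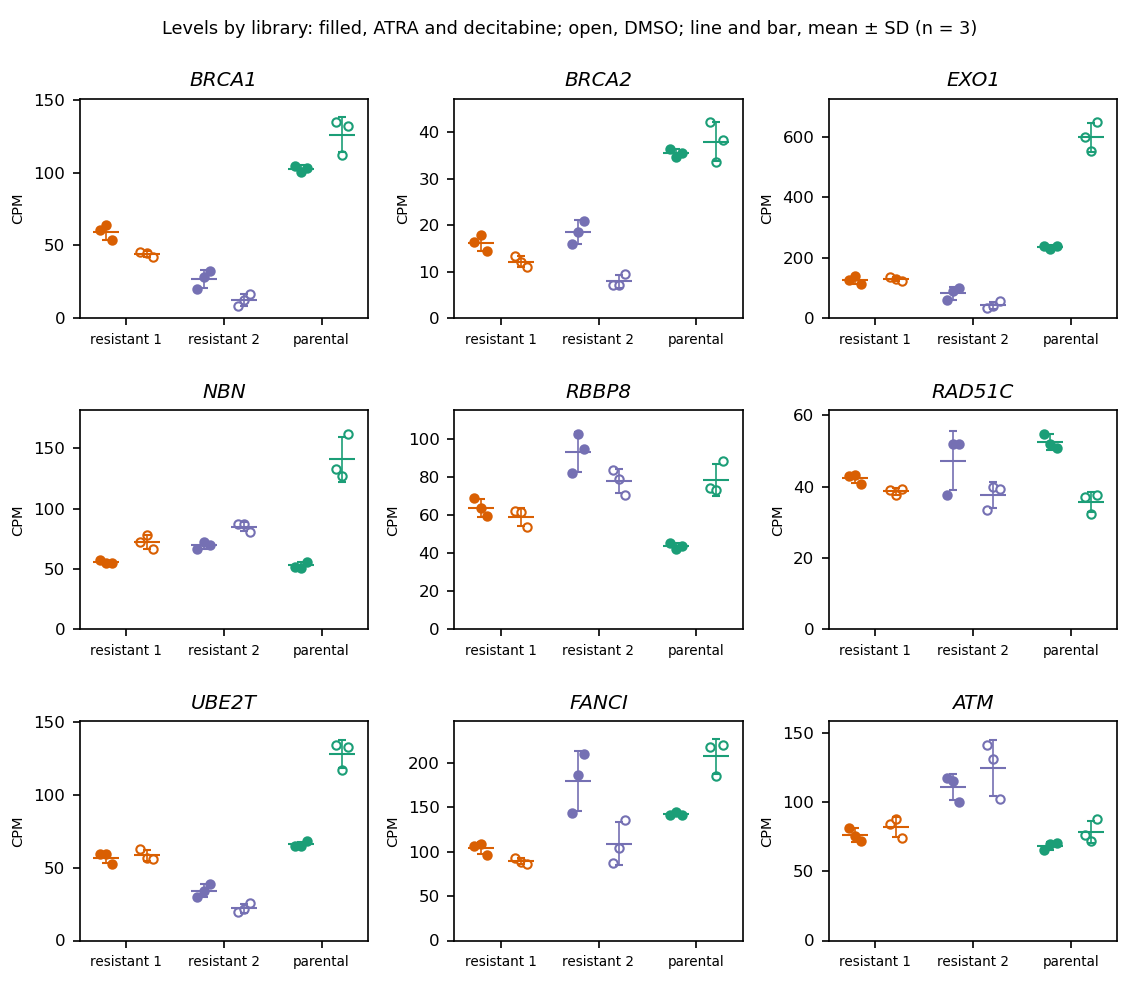
CPM in every library for 9 genes, filled points for ATRA and decitabine and open points for DMSO, in resistant 1, resistant 2 and parental cells, with the mean and SD of n = 3. In EXO1, NBN and UBE2T the treated and DMSO parental points are far apart, and in BRCA1 and BRCA2 the resistant points stay below the parental ones in both treatments.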

How the data were processed

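RNA was sequenced from 18 libraries: 3 populations, ATRA with decitabine or DMSO, and 3 replicates a group. Per the labels, polyadenylated RNA went into a stranded TruSeq library. The submitters' processing notes name FastQC, MultiQC, STAR, featureCounts, DESeq2 and the human build GRCh38 (hg38); versions, the gene annotation and whether strand was used in counting: each not given in the sources used here. The authors deposited 2 tables of 9 libraries, one for each treatment, whose values per gene are counts divided by DESeq2 size factors, a signal never below 0. The DMSO values came out as whole reads, within 0.01 of a whole number, for 100% of values above 0. The deposited table of treated cells holds other values: its decimal points were lost, so each value is known only up to a power of 10. That power was restored per gene by the probability of each choice under the spread between libraries seen with DMSO, and genes below 99% were left out, which favours values on which replicates agree. Of 25191 treated genes at the filter, 20013 (79.4%) were kept. Stripping the DMSO table of its points and restoring it gave 44 wrong values of 158409, in 22 of 17601 genes and in 0 of the 36 genes here. The spread and the levels used for restoring came from that same DMSO table, so the share of wrong treated values was not measured.

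Some genes are not reported here. The genes and lists were chosen with earlier results of these data known. Within a treatment, limma 3.58.1 in R 4.3.3 was run on log2(normalized count + 1) (trend, all 9 libraries in the fit, at least 10 normalized counts in 3 libraries), and responses were tested on log2(CPM + 1) with TMM scaling over 18 libraries. P-values were adjusted by Benjamini-Hochberg over all genes tested, in each of 12 comparisons. The fits were tested on simulated data. As alternatives, the recovered reads were tested with edgeR 4.0.16 and DESeq2 1.42.0, and the pseudocount, the filter, the scaling, the libraries in the fit, the restoration threshold, a replicate block and each left-out library were varied. No replicate pair was alike within sampling noise, with a chi-square of 9.20 to 224.9 for each degree of freedom. Values of single libraries are given for the 2 genes of each role with the largest log2 change in resistant 2 with DMSO, for those called higher in a resistant population with DMSO, for the 3 largest called responses in parental cells, and for genes called in neither population; from other lists, up to 2 called genes are named. FANCF, FANCM, RAD51C and others named for crossing a threshold were chosen after their values were seen. Symbols come from GENCODE 29, on GRCh38, for 57447 of 58051 identifiers. Opposite-strand genes cover over 10% of the exonic bases of XRCC3, RAD54L, FANCA, FANCF, FANCL, FAN1 and ATR, and MRE11, RBBP8, RAD51AP1, FANCD2 and CHEK2 have annotated pseudogenes, so their counts are uncertain to that extent.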

Additional observations from a re-analysis of the deposited data

Results flagged for a closer look

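Responses to ATRA and decitabine differed between populations in a direct test (limma on log2(CPM + 1), Benjamini-Hochberg adjusted p under 0.05). Between resistant 1 and parental cells, 27 of 35 genes differed (26 with a larger value in resistant 1), with log2 differences of 1.29 for EXO1, 1.04 for XRCC3 and 1.01 for NBN as the largest. Of all genes, 20.5% had a larger and 23.4% a smaller value in resistant 1. Between resistant 2 and parental cells, 29 genes differed, led by EXO1 at 2.28, RAD54L at 1.64 and BARD1 at 1.60. All 29 had a larger value in resistant 2, where 23.6% of all genes had a larger and 26% a smaller one. For EXO1, all 3 treated libraries were above all DMSO libraries in resistant 2 and below them in parental cells. Between resistant 1 and resistant 2, 4 genes differed, the largest being EXO1 at -0.99, BRCA2 at -0.74 and UBE2T at -0.64. Of all genes, 3.1% had a larger and 1.54% a smaller value in resistant 1. The count of 4 ran from 1 to 14 when single libraries were left out, and was 1 with the compared groups fitted alone. The 3 comparisons share libraries with one another. XRCC3 shares exonic bases with KLC1 on the other strand, and its difference was among the calls lost when single libraries were left out.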

How the results depend on the processing

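No called value turned its direction under an alternative in any of the 12 comparisons. With the 6 or 12 libraries of the compared groups fitted alone, the response of resistant 1 had 12 called genes of the 35 and that of resistant 2 had 3, with 1529 genes called in all in resistant 2; the difference between the resistant populations had 1. That difference had 7 with a pseudocount of 0.1 and 8 with DESeq2, and over all genes it had 611 calls with edgeR and 393 at the stricter restoration threshold. At that threshold the response of resistant 1 had 3603 calls over all genes. The causes were not tested.

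Leaving out 1 library at a time, the genes called numbered 29 to 31 (10565 to 11590 over all genes) for resistant 1 against parental cells with DMSO, 30 to 32 (12254 to 13355) for resistant 2 and 21 to 28 (9777 to 11457) for resistant 1 against resistant 2. With the drugs they numbered 17 to 19 (11993 to 12630), 24 to 28 (13167 to 14145) and 17 to 26 (10000 to 11301) in the same comparisons. For the responses they were 2 to 5 (3681 to 4897) in resistant 1, 18 to 23 (2703 to 3775) in resistant 2 and 22 to 25 (12239 to 12634) in parental cells. For the differences of responses they were 21 to 26 (8051 to 8713) for resistant 1 minus parental, 29 to 30 (9200 to 9932) for resistant 2 minus parental and 1 to 14 (635 to 1175) for resistant 1 minus resistant 2, with 14 without DMSO replicate 3 of resistant 2.

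Same-numbered libraries correlated between -0.280 and 0.376, and the main fits did not use the numbers as pairs. Between resistant 1 and resistant 2 with DMSO, same-numbered replicates 2 and 3 correlated at 0.264 and 0.376, other numbers at most at 0.095 and -0.148. Replicate 1 gave 0.085 there, against 0.113 for the best other number. With a replicate block, FANCF lost its call in resistant 2 against parental cells with DMSO (adjusted p = 0.0643, limma), 1 call was lost in the response of resistant 2, and 1 or 2 were gained in each of 4 comparisons. In treated resistant 2 against parental cells, the median of all genes was -0.15 with no filter, 0.10 with a filter of 50 and 0.12 at the stricter restoration threshold, against 0.05.

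The limits are 3 libraries a group, treated values restored from digits, an unknown strand setting, and 2 resistant populations with no replicate of the selection. Depth was not among them: the lowest value of the 36 genes with DMSO was 228 normalized counts.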
